A study of Mus musculus with 3 samples.

Results

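Cycling cells are the dividing minority of any tissue, and in these pancreas libraries they were picked out by 8 genes of the cell division programme: Mki67, Top2a, Cdk1, Birc5, Ube2c, Ccnb1, Cenpf and Pclaf. A cell barcode counted as cycling when it held at least 3 unique molecular identifiers (UMIs, each standing for 1 captured RNA molecule) of these genes, from at least 2 of them. The rule found 58 of 36630 barcodes that passed the quality filters, out of 41134 deposited: 17 in the library labelled diabetic-Exercise, 26 in the library labelled diabetic and 15 in the library labelled none. Each cycling barcode was then given a type by the largest of 5 marker sums: Spp1 and Ambp (ductal), C1qa, C1qb and Lyz2 (macrophage), Pecam1 and Flt1 (endothelial), Col3a1 and Dcn (fibroblast), and Cd79a and Cd3e (lymphocyte).

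The libraries come from dissociated mouse pancreas, were built with the 10x Chromium 3-prime chemistry (version 3) and number 3, with 1 library per group. The diabetic-Exercise library is from male db/db mice, a strain made obese and diabetic by loss of leptin signalling, trained on a treadmill from 6 weeks of age. The diabetic library is from sedentary mice of that kind, and the library labelled none is from sedentary mice whose genotype and age the sources used here do not give. How many animals each library holds is not stated, so no test between libraries was possible, and the intervals below cover counting error only.

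A dividing cell copies its DNA in S phase, separates the copies in mitosis and turns on different genes for each task. Helicases that open the DNA, polymerases and nucleotide-making enzymes are made before and during S phase, whereas kinases, kinetochore proteins and motor proteins that move chromosomes build up in G2 and M. In the adult pancreas most exocrine and endocrine cells rest outside the cycle, and dividing cells are commonly sought among duct cells and immune cells.

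The genes of the rule cover both ends of that sequence. Mki67 encodes the Ki-67 protein that coats mitotic chromosomes, Top2a untangles DNA, Cdk1 with its cyclin partner Ccnb1 starts mitosis, Birc5 (survivin) guides chromosome attachment, Ube2c serves the complex that ends mitosis, Cenpf is a kinetochore protein and Pclaf binds the replication clamp. On GRCm38 with the GENCODE M21 annotation, Mki67 lies on the minus strand of chr7:135689784-135716361 and Top2a on the minus strand of chr11:98992943-99024189. Cdk1 lies at chr10:69335146-69352938 and Ccnb1 at chr13:100778650-100786570, both on the minus strand. Cenpf lies on the minus strand of chr1:189640606-189688086. Birc5 lies at chr11:117849251-117855743, Ube2c at chr2:164769898-164778822 and Pclaf at chr9:65890237-65903266, all on the plus strand. These are whole gene spans, and the chemistry reads the 3-prime ends of their transcripts.

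The promoters of the rule genes carry letters known from cell cycle genes, which is why the stretches of Top2a and Mki67 just upstream of the RefSeq transcript start are shown (GRCm38.p6, 110 bases each, 5′ to 3′ on the gene's strand). Capitals mark the letters TTTGAA (on the other strand TTCAAA), the core of the cell cycle homology region, and CCAAT (on the other strand ATTGG), the box bound by NF-Y.
Top2a, chr11:99024190-99024299, minus strand: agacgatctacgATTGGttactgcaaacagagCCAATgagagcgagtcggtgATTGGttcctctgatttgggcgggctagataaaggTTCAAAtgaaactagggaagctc
Mki67, chr7:135716380-135716489, minus strand: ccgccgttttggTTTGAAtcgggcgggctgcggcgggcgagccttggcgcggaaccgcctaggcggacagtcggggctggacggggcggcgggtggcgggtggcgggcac
The Top2a stretch holds 3 CCAAT boxes and 1 TTTGAA match that lies 23 bases before the start, whereas the Mki67 stretch holds no CCAAT box and 1 TTTGAA match 98 bases before the start. Within 250 bases upstream, searched on both strands, TTTGAA occurred in 4 of the 8 rule genes (Mki67, Top2a, Cdk1 and Ube2c), beside 18.3% of 27025 genes. CCAAT occurred in 7 of the 8, all but Birc5, beside 37.5% of those genes. A TTTGAA match and a CCAAT match can share no more than an end base. CCAAT matches on opposite strands can share more, as those 186 and 183 bases before the start of Ube2c do. A match describes the letters of a window and not a bound site.

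The libraries differed in depth and in the share of acinar RNA. Kept barcodes had a median of 1989 UMIs in the diabetic-Exercise library, 5108 in the diabetic library and 4164 in the library labelled none, and 31 acinar markers (digestive enzyme genes and their like) took a median of 71.5%, 78.8% and 77.3% of UMIs. Barcodes with under 50% acinar marker UMIs, the main population below, were of more even depth, with medians of 3220, 3216 and 3780 UMIs. Few barcode sequences occurred in 2 libraries (61, 32 and 43 per pair), and none of the 58 cycling barcodes was among them.

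Most of the 58 barcodes rested on few molecules of the rule genes, which are given here as a description because they chose the cells. Rule UMIs per cycling barcode ran from 3 over a median of 8 to 140 in the diabetic-Exercise library, from 3 over 6 to 50 in the diabetic library and from 3 over 23 to 83 in the library labelled none. Barcodes at exactly 3 UMIs numbered 2, 5 and 2, and those with 10 or more numbered 6, 9 and 9. All 8 genes were seen together in 3, 4 and 2 barcodes. Just outside the rule, 6, 6 and 2 barcodes held 2 UMIs of 2 genes, and 2 barcodes of the diabetic library held at least 3 UMIs of 1 gene, Ube2c in both.

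Which gene carried the signal varied. Ube2c was the most counted rule gene in the diabetic-Exercise library (82 UMIs in 13 of 17 barcodes) and in the library labelled none (80 UMIs in 13 of 15), whereas Mki67 led in the diabetic library (70 UMIs in 16 of 26). Pclaf, the rule gene tied to replication, gave 36 UMIs in 7 barcodes of the diabetic-Exercise library, 36 in 10 of the diabetic library and 75 in 10 of the library labelled none. In the library labelled none, 68 of those 75 Pclaf UMIs came from T cells.

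**Figure D1:**
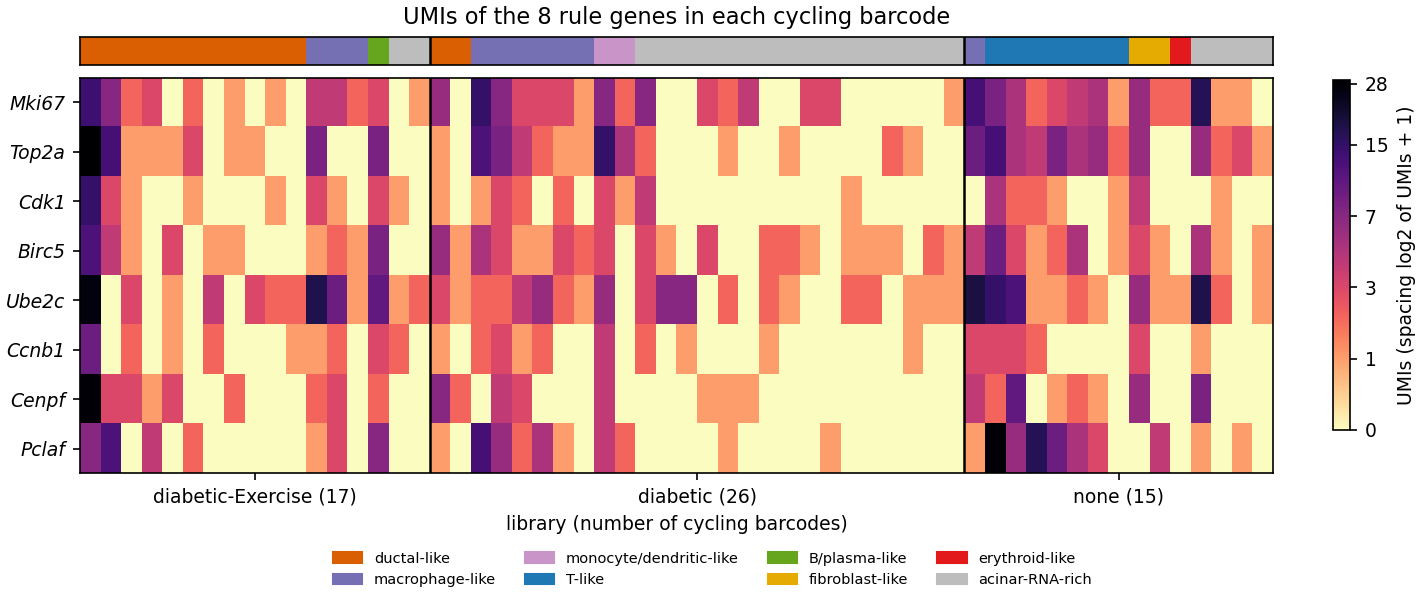
UMIs of the 8 rule genes in each of the 58 cycling barcodes, in the order diabetic-Exercise, diabetic, none and grouped by marker reading within each library. A few deep barcodes are filled across all genes, with up to 140 rule UMIs, and many diabetic barcodes rich in acinar RNA carry only 3 to 8.

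The cycling barcodes were of different types in the 3 libraries. By the sums of the rule, 13 of the 17 in the diabetic-Exercise library were ductal (76.5%, exact 95% interval 50.1 to 93.2%), 3 macrophage and 1 lymphocyte. In the diabetic library 12 of 26 stayed unassigned (46.2%), 8 were macrophage (30.8%) and 6 ductal (23.1%). In the library labelled none 7 of 15 were lymphocyte (46.7%), 3 macrophage, 2 fibroblast, and ductal, endothelial and unassigned had 1 each.

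A reading by 16 longer marker lists, which kept barcodes with at least 50% acinar marker UMIs apart, changed several of these names. Of the 20 barcodes ductal by the sums, 13 were read as ductal-like, 6 were acinar-RNA-rich and 1 carried monocyte and dendritic cell markers. Of the 13 unassigned, 12 were acinar-RNA-rich and 1 was erythroid-like. By this reading the diabetic-Exercise library held 11 ductal-like, 3 macrophage-like, 1 B or plasma-like and 2 acinar-RNA-rich barcodes. The diabetic library held 2 ductal-like, 6 macrophage-like, 2 monocyte or dendritic-like and 16 acinar-RNA-rich barcodes. The library labelled none held 7 T-like, 2 fibroblast-like, 1 macrophage-like, 1 erythroid-like and 4 acinar-RNA-rich barcodes. No cycling barcode in any library was read as endothelial-like, mural-like, endocrine-like or mesothelial-like.

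**Figure D2:**
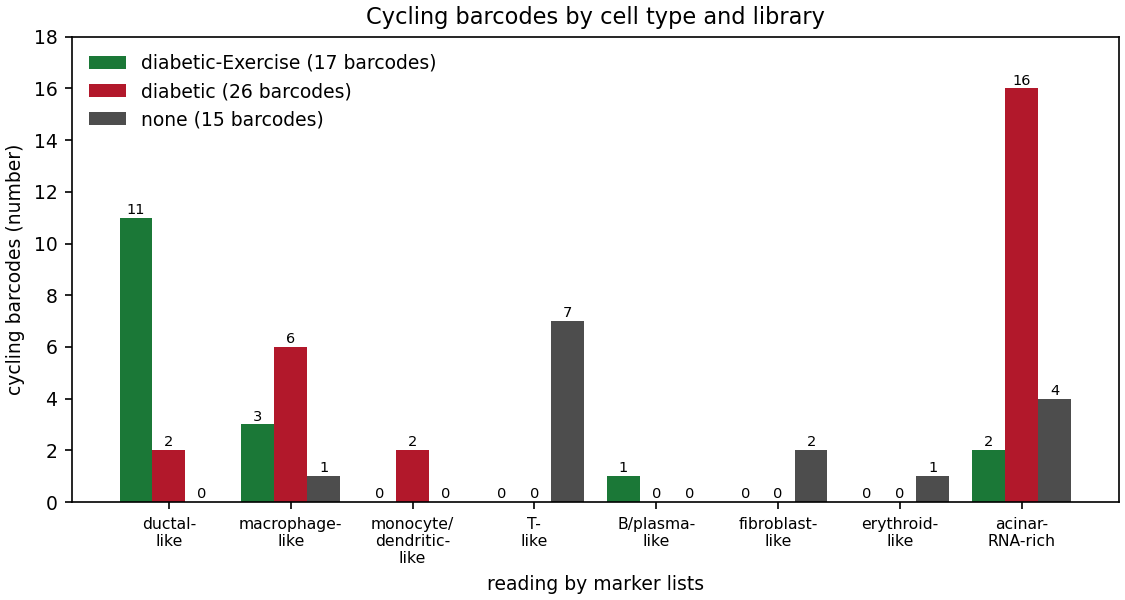
Number of cycling barcodes per marker reading in the diabetic-Exercise, diabetic and none libraries, as bars from 0. Ductal-like barcodes lead in diabetic-Exercise (11), acinar-RNA-rich ones in diabetic (16) and T-like ones in none (7).

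Among barcodes with under 50% acinar marker UMIs, cycling barcodes were 15 of 1758 in the diabetic-Exercise library (0.853%, interval 0.478 to 1.40%), 10 of 2174 in the diabetic library (0.460%, 0.221 to 0.844%) and 11 of 992 in the library labelled none (1.11%, 0.555 to 1.98%). The share in diabetic-Exercise was 1.86 times that in diabetic (interval 0.780 to 4.62), and the share in diabetic was 0.415 times that in none (0.158 to 1.08). Both comparisons use the diabetic library, and both intervals include 1, so neither difference was detectable at these counts. Thinned to 1000 UMIs per barcode, which left out 224, 103 and 11 shallower barcodes of this population, the shares averaged 0.551%, 0.213% and 0.627% over 20 draws.

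Over all kept barcodes the order of the libraries was another. There the shares were 0.107%, 0.224% and 0.164%, and the ratio of diabetic-Exercise to diabetic was 0.478 (interval 0.243 to 0.915). Thinned to 1000 UMIs those shares averaged 0.0611%, 0.0419% and 0.0783%, so diabetic-Exercise then stood above diabetic. Thinned to 2000 UMIs they averaged 0.0837%, 0.0989% and 0.116%. Among the acinar-RNA-rich barcodes, 2 of 14104 were cycling in diabetic-Exercise, 16 of 9425 in diabetic and 4 of 8177 in none. Their depth moved with that count, with medians of 1955, 5684 and 4245 UMIs in all acinar-RNA-rich barcodes. Thinned to 1000 UMIs, an average of 0.70, 0.35 and 0.95 acinar-RNA-rich barcodes met the rule, and thinned to 2000 UMIs an average of 0, 2.25 and 1. How much of the count is depth was not tested beyond these values.

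**Figure D3:**
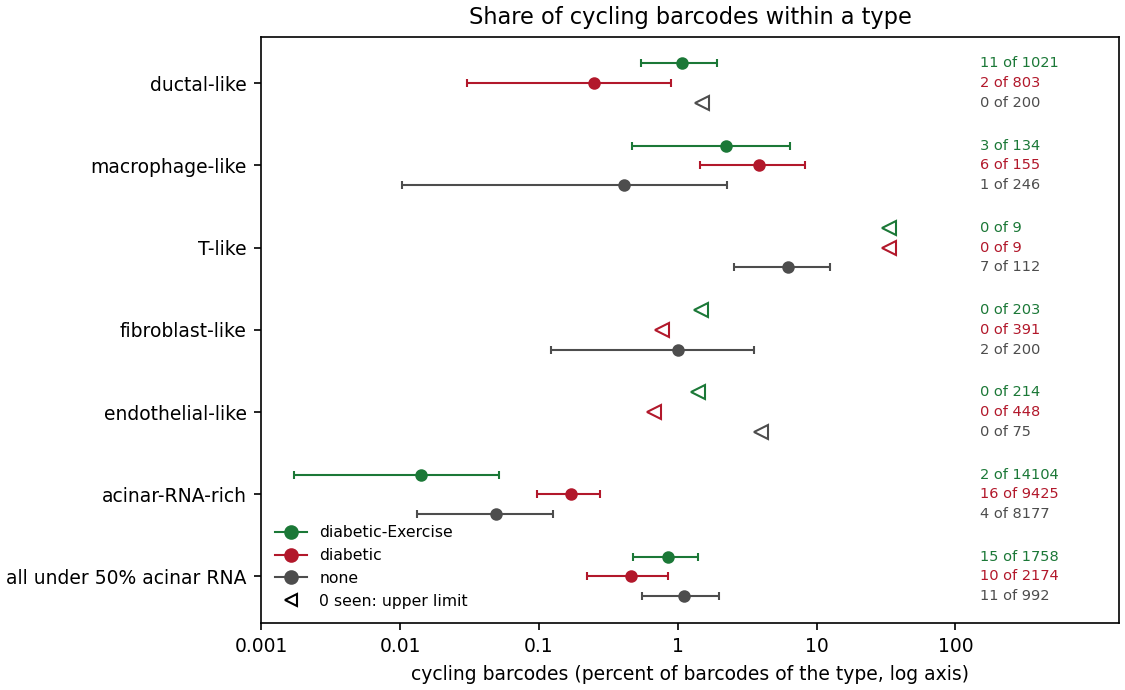
Percent of the barcodes of each marker reading that were cycling, on a log axis, with exact 95% binomial intervals, for diabetic-Exercise, diabetic and none. Ductal-like barcodes stand at 1.08% in diabetic-Exercise and 0.249% in diabetic, with intervals that overlap, and T-like barcodes at 6.25% in none.

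Duct cells line the channels that drain digestive enzymes and secrete bicarbonate. Of ductal-like barcodes, 11 of 1021 were cycling in the diabetic-Exercise library (1.08%), 2 of 803 in the diabetic library (0.249%) and 0 of 200 in the library labelled none, which allows a share of up to 1.50%. The diabetic-Exercise share was 4.33 times the diabetic one, with an interval of 0.944 to 40.2. By the sums of the rule the counts were 10 of 884, 2 of 697 and 0 of 163, and the ratio was 3.94 (0.840 to 37.0). Both intervals include 1, so the difference in cycling duct cells was not larger than the counting error.

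The 11 ductal-like barcodes of the diabetic-Exercise library were a mixed set. Their depth ran from 734 over a median of 1591 to 40932 UMIs, and the 2 deepest held 71.0% of all their UMIs. Together they showed all 17 ductal markers, against 5 UMIs of the 13 macrophage markers and none of the 10 T cell or 11 endothelial markers. Of other lists, mural markers stood out with 59 UMIs, nearly all from Rgs5, of which the deepest barcode alone held 47.

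Onecut2, a liver and pancreas transcription factor, was used to split them, a choice made after the values were seen. It was counted in the 4 deepest (2, 10, 6 and 5 UMIs) and in none of the other 7. Those 4 had 7105 to 40932 UMIs and 1.64 to 9.94% acinar marker UMIs, whereas the other 7 had 734 to 2441 UMIs and 17.7 to 49.1%. At the lower depth a missed Onecut2 UMI cannot be told apart from an absent one. Per 10000 UMIs outside acinar and mitochondrial genes, the keratin gene Krt7 stood at 6.81 with Onecut2 and 1.64 without (1 UMI). Krt19 stood at 6.94 and 3.28 (2 UMIs without). Krt8, Krt18 and Epcam were nominally higher with Onecut2, from 15, 7 and 8 UMIs without. Ambp, a secreted protease inhibitor, stood the other way at 0.272 and 24.6 per 10000, Spp1 (osteopontin) at 37.2 and 133, and Dmbt1, a mucosal glycoprotein, at 1.22 and 36.0. Sox9 at 4.76 and 11.5 (7 UMIs without) and Muc1 at 4.22 and 4.92 (3 UMIs without) were nominally lower with Onecut2. No interval was computed for this split, and the directions of the keratin genes, Epcam, Sox9 and Muc1 are not settled at such counts. Ambp was counted in 2 of the 4 barcodes with Onecut2 and in 6 of the 7 without. Of the cycling ductal-like barcodes of the diabetic library, the deeper (9819 UMIs) had 8 Ambp, 147 Spp1 and no Onecut2 UMIs.

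Cell division genes outside the rule are given as a description, since the barcodes were selected on genes of the same programme. Rates are given per 10000 UMIs outside acinar and mitochondrial genes, for the 11 cycling barcodes and then for the other 1010 ductal-like barcodes of the library. Replication enzymes stood at 34.6 against 6.48, replication licensing factors at 8.92 against 2.24, mitotic kinases at 11.2 against 0.728 and kinetochore and spindle genes at 43.6 against 0.652. Without the 2 deepest barcodes the replication rate was 58.3 and the licensing rate 16.3. Of chromatin and tubulin genes, all 17 with enough counts were at least 2-fold higher, beside 7.79% of the 6662 genes compared. Nothing is read from that count. Over all 6662 genes the median log2 ratio was 0.09, and 0.28 when total UMIs set the scale.

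The genes of these lists with the most UMIs were tubulin and chromatin genes. Stmn1, which keeps tubulin unpolymerised, had 168 UMIs in 9 of the 11 barcodes and was 16.9 times its level in other duct cells (interval 14.1 to 20.2). Hmgb2, a chromatin bender, was 12.9 times higher, Tubb5, a tubulin, 8.18 times and the histone variant H2afz 6.46 times. Cdc20, which triggers the end of mitosis, had 20 UMIs. Its ratio of 56.4 rests on fewer than 2 expected UMIs, so Cdc20 was not among the genes compared. Of cell cycle inhibitors and p53 targets, 2 of 13 were at least 2-fold higher and 2 at least 2-fold lower, beside 19.2% of all genes compared that were lower, so that list showed no common direction. The G1 cyclin gene Ccnd1 stood at 0.471 times.

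Immediate early genes, which respond to growth factors and to tissue dissociation, were lower as a list. Of 18 compared, 9 were at least 2-fold lower and none at least 2-fold higher, beside the 19.2% of all genes, with a median log2 ratio of -1.03. That value leaned on the 2 deepest barcodes. Their list rate was 144 per 10000 over the 11 barcodes, 246 without the 2 deepest and 296 in the other duct cells. Fos itself stood at 0.517 times with all 11 barcodes and at 1.31 times without those 2, and Egr1 at 0.514 and 0.478. Apoe, a lipid carrier, was low either way, at 0.160 and 0.360 times, as was the growth factor receptor gene Fgfr3 at 0.277 and 0.136. Igf1 (26 UMIs in 2 barcodes) and Bst2 (29 UMIs) had ratios of 5.08 and 5.49 that came from the deepest barcodes and were 0 without them.

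Macrophages clear debris, and those of tissues are either long resident or newly made from blood monocytes. Of macrophage-like barcodes, 3 of 134 were cycling in the diabetic-Exercise library, 6 of 155 in the diabetic library and 1 of 246 in the library labelled none. By the sums of the rule the shares were 2.27% (3 of 132), 3.75% (6 of 160) and 0.412% (1 of 243). The diabetic-Exercise share was 0.606 times the diabetic one (interval 0.0981 to 2.84), and the diabetic share was 9.11 times the none one (1.11 to 419), which rests on 1 barcode in none. That barcode had 3 UMIs of Lyz2, none of C1qa or C1qb, and dendritic cell genes given below. Of the 6 in diabetic, 1 was C1q-rich, so these are shares of macrophage-like barcodes and not of settled macrophages.

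The markers of these 10 barcodes go against a single macrophage identity, a description made after their values were seen. The complement genes C1qa and C1qb, which mark settled macrophages, summed to 153 UMIs in 1 barcode of the diabetic library, to at most 6 in each of the other 9 and to 0 in 5. That barcode, with 10751 UMIs, also held 207 of Apoe and 10 of Adgre1 (the F4/80 antigen), and none of Retnla. Among the other macrophage-like barcodes, C1qa or C1qb was counted in 85.5% in diabetic-Exercise, 85.2% in diabetic and 90.2% in none, at a lower median depth than the cycling ones (3776, 4108 and 4001 UMIs).

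Most of the rest carried Retnla, a secreted product of monocyte-derived and alternatively activated cells, whereas lysozyme (Lyz2) was counted in all 10, with 64 UMIs in the C1q-rich barcode. In the diabetic-Exercise library Lyz2 gave 61, 61 and 13 UMIs, Retnla 92, 80 and 9, and Ccr2, the receptor that brings monocytes into tissue, 16, 20 and 3. In the diabetic library Retnla gave 51, 47, 34 and 16 UMIs in 4 barcodes and 1 and 0 in the other two. Retnla was thus at 9 UMIs or more in 7 of the 10, whereas other macrophage-like barcodes had any Retnla UMI in 22.9% in diabetic-Exercise, 10.7% in diabetic and 35.9% in none. Per 10000 UMIs outside acinar and mitochondrial genes, Retnla averaged 109 in cycling against 40.4 in other macrophage-like barcodes of diabetic-Exercise, and 33.5 against 8.08 in diabetic. In diabetic this was 4.15 times the others' level (interval 3.41 to 5.01). Whether Retnla moved with the type of macrophage or with division was not tested.

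Dendritic cell genes marked the remainder. A diabetic barcode of 18069 UMIs held 13 UMIs of Cd209a, a marker of monocyte-derived and type 2 dendritic cells, 4 of Itgax and 470 of Cd74, the chaperone of MHC class II. The macrophage-like barcode of the library labelled none, with 9420 UMIs, held 3 each of Xcr1 and Clec9a, markers of cross-presenting dendritic cells, 116 of Cd74, and no C1qa, Csf1r or Retnla. The monocyte or dendritic-like barcodes of the diabetic library had 16566 and 6451 UMIs, with Ccr2 at 8 and 9, Flt3 (the growth factor receptor of dendritic cell precursors) at 4 and 2, and Xcr1 at 4 and 1. Of the 12 cycling myeloid barcodes, therefore, 1 resembled a C1q-rich macrophage.

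The 6 macrophage-like barcodes of the diabetic library were compared with the other 149, per 10000 UMIs as above. C1qa and C1qb summed to a median of 0.5 UMIs in the 6 and of 21 in the others. Kind of myeloid cell and division thus cannot be told apart in the ratios below. Kinetochore and spindle genes stood at 33.9 against 1.04, replication enzymes at 33.9 against 3.89 and licensing factors at 11.9 against 1.72. Of 14 chromatin and tubulin genes 12 were at least 2-fold higher, beside 10.6% of the 3287 genes compared, and nothing is read from a count that selection favours. Stmn1 stood at 87.2 times the others' level and Tubb5 at 10.9 times. Over all genes compared the median log2 ratio was -0.02 (0.12 scaled by total UMIs).

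Genes of tissue residence and repair went the other way in these 6. Of 11 compared, 9 were at least 2-fold lower and 1, Retnla, higher, beside 30.9% of all 3287 genes that were lower. The mannose receptor gene Mrc1 stood at 0.225 times (interval 0.112 to 0.405), and Csf1r, the receptor for the macrophage growth factor, at 0.216 times (0.107 to 0.389). Apoe stood at 0.227 times, and 207 of its 208 UMIs came from the C1q-rich barcode. MHC class II genes did not follow, with Cd74 at 0.965 and H2-Aa at 1.06 times, although Cd74 stood at 0.628 without the Cd209a barcode. Cdkn1a, the p21 inhibitor of cyclin-dependent kinases, was counted in all 6 and stood at 2.33 times (1.60 to 3.30). Of 19 immediate early genes 8 were at least 2-fold lower and 1 higher, a share not far from that 30.9%.

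Lymphocytes divide after they meet antigen. The 7 T-like cycling barcodes were 6.25% of the 112 T-like barcodes in the library labelled none (exact interval 2.55 to 12.5%). T-like barcodes numbered 9 each in the diabetic-Exercise and diabetic libraries, with 0 cycling, too few to compare. All 10 T cell markers were seen in them, with 249 UMIs, against 3 UMIs of the macrophage and 14 of the natural killer and innate lymphoid lists. Cd4 was counted in 3 barcodes (3, 3 and 2 UMIs), Cd8a and Cd8b1 in 1 (6 and 7 UMIs), and Foxp3, the regulator of regulatory T cells, in 2 (2 and 1 UMIs). Marks of more than 1 kind of T cell were thus seen, at few UMIs each, and the makeup of the 7 barcodes was not settled.

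Beside the 105 other T-like barcodes of that library, replication enzymes stood at 48.9 against 3.31 per 10000 and licensing factors at 20.9 against 1.94. Dut, which keeps uracil out of DNA, was 21.1 times higher, the replication clamp gene Pcna 20.8 times, the histone message binder Slbp 18.04 times and the helicase subunit gene Mcm7 12.6 times. Of 16 chromatin and tubulin genes 14 were at least 2-fold higher, beside 22.8% of the 1669 genes compared, again with nothing to be read from it. The other T-like barcodes were shallower (median 3327 UMIs, against 7904 in the cycling ones) and richer in acinar RNA (42.2%, against 20.9%). Over all genes the median log2 ratio was 0.31, and 0.81 when total UMIs set the scale, so every ratio here is best read against that shift.

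Growth genes were also higher in cycling T cells. Of 14 genes of ribosome making and metabolism, 8 were at least 2-fold higher and none lower, beside 22.8% of all 1669 genes that were higher. Their median log2 ratio was 1.15, against 0.31 over all genes. The list stood at 110 per 10000 against 46.4 in the other T-like barcodes. The deepest barcode held 325 of the list's 611 UMIs, and the list stood at 78.1 without it. The translation factor gene Eif5a stood at 3.95 times, the glycolysis gene Ldha at 2.88 times and Npm1, a nucleolar protein gene, at 2.18 times. Without the deepest barcode Npm1 stood at 1.72 times and Eif5a at 2.88. The anti-proliferative genes Btg1 and Btg2 were low, at 0.294 times (0.165 to 0.490) and 0.198 times (0.0840 to 0.401). Of 13 immediate early genes 7 were at least 2-fold lower and none higher, beside 13.6% of all 1669 genes that were lower.

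Acinar cells make digestive enzymes and are the bulk of the pancreas, and their RNA leaks into droplets of every kind. The 16 acinar-RNA-rich cycling barcodes of the diabetic library had 70.8 to 82.3% acinar marker UMIs and 2808 to 25915 UMIs in all, but only 3 to 21 rule UMIs, with a median of 4. The acinar transcription factors Ptf1a, Bhlha15, Nr5a2, Rbpjl and Gata4, looked up after the members were known, summed to 30 UMIs in 12 of the 16, which is 8.16 per 10000 UMIs outside acinar and mitochondrial genes, against 6.92 in the other 9409 acinar-RNA-rich barcodes. In the 6 macrophage-like cycling barcodes of diabetic and the 7 T-like ones of none these factors were at 0. The 11 ductal-like ones of diabetic-Exercise held 12 UMIs of them, and the B or plasma-like one held 4. Acinar-RNA-rich cycling barcodes of none held 6 UMIs, all in 1 of the 4. Their rate was 3.795 per 10000, against 6.736 in the other acinar-RNA-rich barcodes of none. The 2 of diabetic-Exercise were at 0. Those 2 held only 398 and 255 UMIs outside acinar and mitochondrial genes, too few for 0 to tell absent factors from missed ones. Whether the factors marked the acinar-RNA-rich cycling barcodes of none and diabetic-Exercise was not settled at these counts. At least 1 rule UMI was present in 0.454%, 1.06% and 0.770% of acinar-RNA-rich barcodes of diabetic-Exercise, diabetic and none, against 3.30%, 3.91% and 3.43% of the others.

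Genes outside the rule were high in these 16 as well. Kinetochore and spindle genes stood at 25.3 against 0.260 per 10000, mitotic kinases at 8.98 against 0.235 and replication enzymes at 13.3 against 1.55. H2afz was counted in 15 of the 16 barcodes (102 UMIs) at 7.26 times the others' level (interval 5.91 to 8.84), and 45 UMIs of Tubb5 lay in 10 barcodes. Ccna2, the cyclin of S and G2, gave 9 UMIs in 6 barcodes. Chromatin and tubulin genes were at least 2-fold higher in 4 of 5 cases, beside 12.7% of the 1685 genes compared, which selection again favours. The median log2 ratio over all genes was 0.30, and 0.56 scaled by total UMIs.

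Immediate early genes were lower in the acinar-RNA-rich cycling barcodes. Of 15 compared, 12 were at least 2-fold lower and none higher, beside 13.4% of all 1685 genes that were lower, with a median log2 ratio of -1.41. Fos stood at 0.254 times, Egr1 at 0.261 times and Btg2 at 0.177 times. The heat shock list stood at 26.9 against 13.96 per 10000, and its chaperone gene Hsp90aa1 at 4.88 times (interval 3.37 to 6.84), and Cdkn1a stood at 4.66 times from 12 UMIs in 3 barcodes. Genes of the unfolded protein response, which serve enzyme secretion, were even, with 0 of 18 at least 2-fold higher, 2 lower and a median log2 ratio of -0.02.

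**Figure D4:**
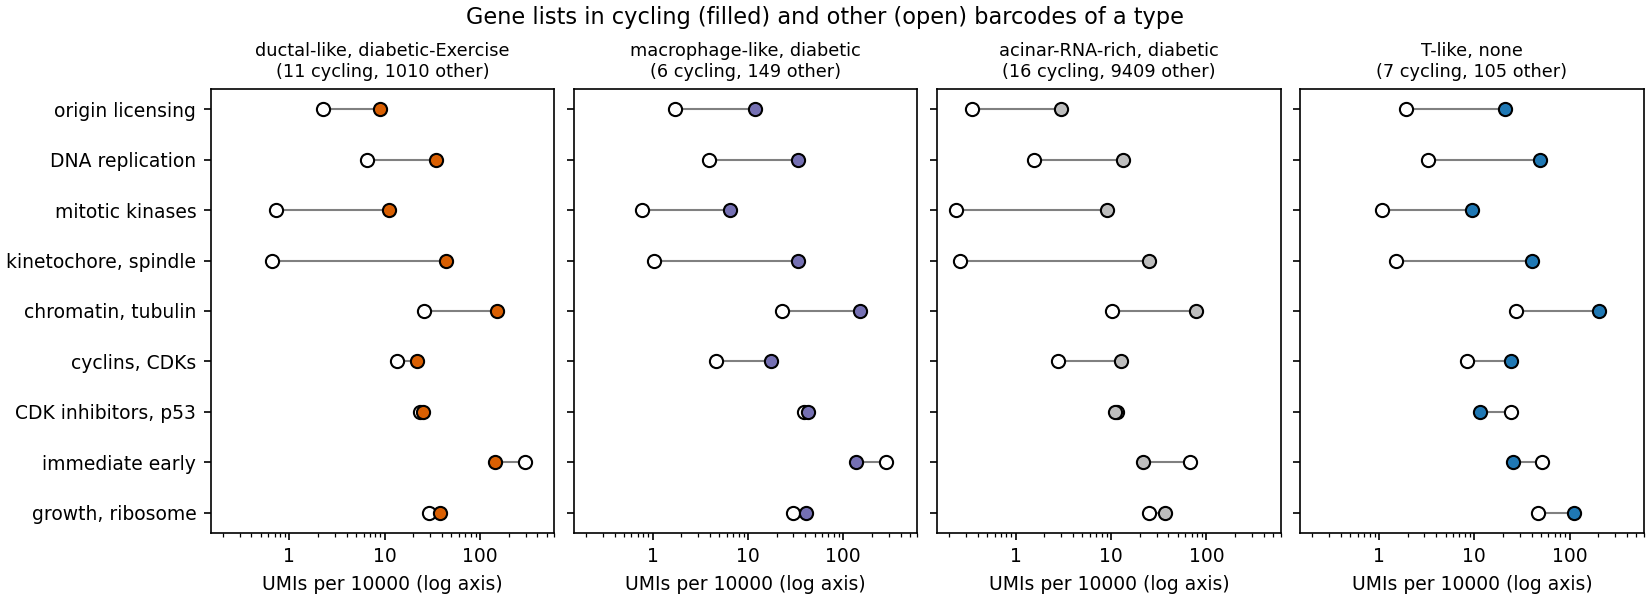
Summed level of the gene lists, as UMIs per 10000 outside acinar and mitochondrial genes, in cycling barcodes beside the other barcodes of the same class, for ductal-like (diabetic-Exercise), macrophage-like and acinar-RNA-rich (diabetic) and T-like (none). Kinetochore and spindle genes differ most (43.6 against 0.652 in duct cells), and the immediate early list is lower in cycling barcodes of all 4 classes. In duct cells that gap leaned on the 2 deepest barcodes (246 against 296 without them). In the macrophage-like class, kind of cell and division cannot be told apart.

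Rarer types gave 1 or 2 barcodes each. A diabetic-Exercise barcode of 27838 UMIs with 44 rule UMIs held 7198 UMIs of Igkc (antibody light chain) and 474 of Jchain, with 8 of Cd79a, and so carried plasma cell genes beside the B cell list that named it. In the library labelled none, both fibroblast-like barcodes (8 and 34 rule UMIs) were 2 of 200 fibroblast-like ones, against 0 of 203 in diabetic-Exercise and 0 of 391 in diabetic. The erythroid-like barcode of that library held 569 UMIs of the globin gene Hbb-bs and 9 of Alas2, the first enzyme of haem synthesis. An acinar-RNA-rich barcode of the same library, with 56 rule UMIs, held 609 UMIs of Hbb-bs, 6 of Alas2 and 2 of the red cell factor gene Klf1. Whether those are red cell precursors or doublets with acinar cells cannot be told apart here.

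Endothelial cells, which line vessels, gave no cycling barcode. None was found among 214 endothelial-like barcodes of diabetic-Exercise, 448 of diabetic and 75 of none, which allows shares of up to 1.40%, 0.670% and 4%. Mural-like barcodes (47, 95 and 7) and endocrine-like barcodes (4, 26 and 3) also gave none, at numbers that would miss all but large shares. The 1 barcode that the sums called endothelial, in the library labelled none, had 68.9% acinar marker UMIs.

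The balance of S phase and G2/M genes was then compared, with 41 S genes (licensing and replication) and 47 G2M genes (mitotic kinases, kinetochore and spindle), none of them in the rule. The S share of those UMIs, summed over cycling barcodes, was 388 of 974 in diabetic-Exercise (39.8%, interval 36.7 to 43.0%), 342 of 831 in diabetic (41.2%, 37.8 to 44.6%) and 469 of 934 in none (50.2%, 47.0 to 53.5%). Deep barcodes weigh most in these sums, and UMIs of 1 barcode are not independent. With each barcode weighing the same, the medians were 24.4%, 30.95% and 33.3%. G2M UMIs outnumbered S UMIs in 12 of 17, 19 of 26 and 9 of 15 barcodes. Most rule genes are made late in the cycle, and the rule chose these cells.

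The S share also differed between the classes, which were unevenly spread over the libraries, so that class and library cannot be told apart. T-like barcodes of none had an S share of 58.2%, and 4 of the 7 had more S than G2M UMIs. Macrophage-like barcodes had 16.98% in diabetic-Exercise (18 S and 88 G2M UMIs in 3 barcodes), 53.1% in diabetic (204 and 180 in 6) and 7.84% in none (4 and 47 in 1). Every one of the 3 in diabetic-Exercise leaned to G2M, and 4 of the 6 in diabetic leaned to S. With 3 and 6 barcodes this describes those cells and not their libraries.

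Among duct cells of diabetic-Exercise the S share was 44.2%, and 58.9% without the deepest barcode, which held 42.5% of the UMIs. The split by Onecut2 recurred here. Of the 4 with Onecut2 UMIs, 3 leaned to S, with 114, 81 and 55 S UMIs against 73, 19 and 13 G2M UMIs, and the deepest leaned to G2M (81 and 251). Of the 7 without, 6 leaned to G2M, with 15 S and 80 G2M UMIs in all. Depth moved with this split, and its part was not tested.

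**Figure D5:**
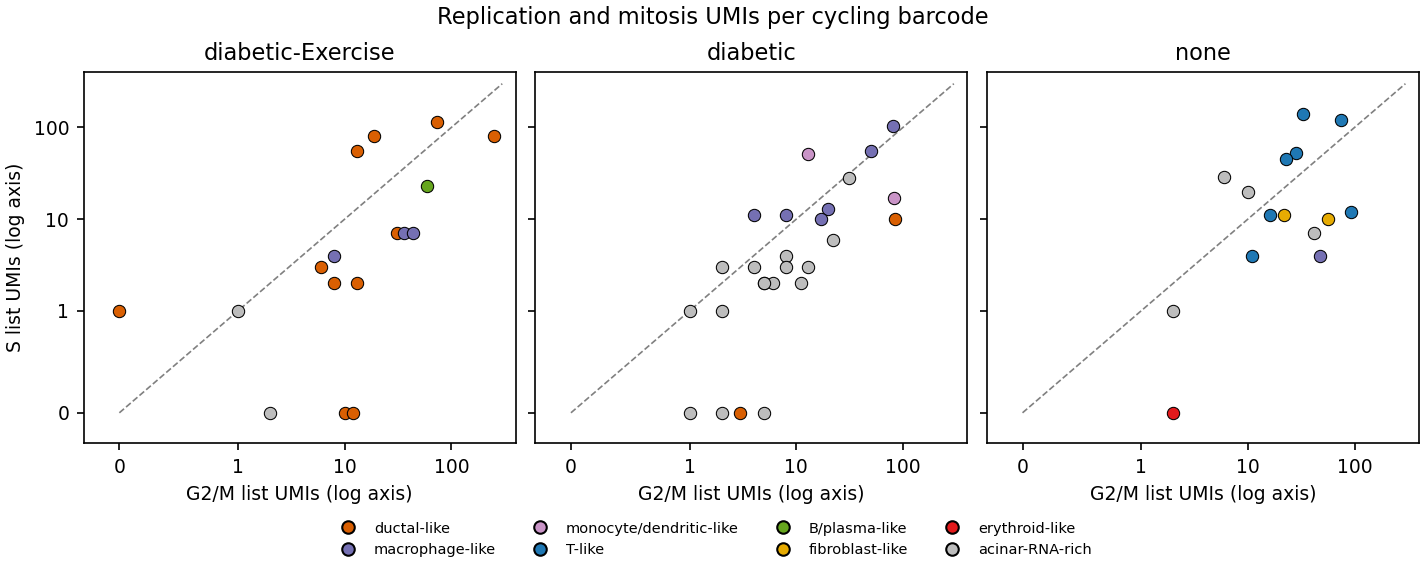
UMIs of the S list against UMIs of the G2M list in each cycling barcode, for diabetic-Exercise, diabetic and none, coloured by marker reading. T-like barcodes of none lie on both sides of the diagonal, and most ductal-like barcodes of diabetic-Exercise lie at low counts on the G2M side.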

How the data were processed

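The authors deposited whole-number UMI counts per gene and barcode, not normalized, for each library. The submitters' processing notes name Cell Ranger 7.1.0 and the matrix headers give 6.1.2. The sources used here do not name the alignment build, but GENCODE M21 of GRCm38 holds every one of the 55450 deposited feature identifiers under the same symbol. Barcodes entered with 500 UMIs or more, 200 genes or more and no more than 20% mitochondrial UMIs: 15862 of 18433 in diabetic-Exercise, 11599 of 12743 in diabetic and 9169 of 9958 in none. The libraries hold 45209034, 80185752 and 54128454 UMIs. Of the barcodes left out, 1, 0 and 0 met the rule on cycling genes. Scrublet's own threshold marked 0 kept barcodes in each library, which means that it did not work, so no doublet was removed, and leaving out the top 5% by score was an alternative that held 1, 1 and 0 cycling barcodes.

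The members and the gene and marker lists were chosen with earlier results of these data known. The reading by marker lists took the list with the most detected markers, at least 3, and was added after seeing the data, as was a minimum of 2 expected UMIs in the members for a gene to be compared. Genes compared also had at least 20 UMIs in all and were not rule, type or acinar marker genes. Gene ratios are UMIs of members over those of the other barcodes of the class and library, scaled by UMIs outside acinar markers and mitochondrial genes. They carry exact conditional Poisson 95% intervals, and median log2 ratios use a prior count of 0.5. Shares carry exact Clopper-Pearson 95% intervals, and a share of 0 is limited by 3 counts of the total. Genes were named as the rule genes, the type genes, and up to 4 genes of each list with the most UMIs in the members of a class. Marker genes and acinar factors were named with their values in view.

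A planned comparison of genes between libraries within a type gave no value: it needed 20 cycling barcodes of a type in both libraries, and the smaller class held at most 6. RefSeq promoters (GRCm38.p6) held all 8 rule genes. Ratios and intervals were tested on simulated counts. Python 3.11.15, numpy 2.4.6, scipy 1.17.1, pandas 2.3.3, scanpy 1.11.5, scikit-image 0.26.0 and matplotlib 3.10.9 were used, with random seed 1.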

Additional observations from a re-analysis of the deposited data

How the results depend on the processing

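Of 159 values recomputed for the shares, type makeup and S share, 133 stayed within the counting interval, and 26 left it. The ratios among them, the cycling share of diabetic-Exercise over diabetic and of diabetic over none, had main intervals that include 1. A reversal was counted only for an interval clear of 1, so none could occur here. Both ratios changed side over all kept barcodes. Cycling share: over all kept barcodes it was 0.107% in diabetic-Exercise and 0.164% in none, with ratios of 0.478 (diabetic-Exercise over diabetic) and 1.37 (diabetic over none). Under 30% acinar marker UMIs it was 4.43% in none, with a diabetic over none ratio of 0.128, and thinned to 1000 UMIs it was 0.213% in diabetic. Within types: thinned to 2000 UMIs the ductal share in diabetic-Exercise was 0.466%, and the lymphocyte and macrophage shares in none were 0 when thinned to 1000 or 2000 UMIs. Makeup in diabetic: macrophage was 53.9% and unassigned 23.1% with at least 5 UMIs from at least 3 genes, 75.0% and 0 with at least 3 type UMIs, 60.9% and 18.5% thinned to 1000 UMIs, and 60.8% and 26.1% thinned to 2000. Ductal was 7.69% there by marker lists, and 49.8% in diabetic-Exercise thinned to 2000 UMIs. S share: the median over barcodes was 24.4% (diabetic-Exercise), 30.95% (diabetic) and 33.3% (none), and diabetic was 45.1% without the top 5% by Scrublet score. The cause was not tested. The marker reading, median over barcodes, S share under 50% acinar UMIs, rule without Pclaf and leaving out the deepest barcodes were chosen after seeing the data. Without the 2 deepest ductal-like barcodes of diabetic-Exercise, ratios changed side for Fos (1.31), Junb (1.11), Cd74 (0.385), and Igf1, Bst2 and Cdkn1a (0 each), and of 73 such gene values over 4 classes 51 stayed, 16 moved and 6 reversed. Alternatives for genes between libraries were not run, as no type had enough barcodes, and no replicate could be left out of 1 library per group. No paired analysis was possible because each group has 1 library. Depth limits all shares.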

Other observations

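Further lists are described here for cycling barcodes beside the others of their class. Duct cells, macrophages and T cells stand here for the ductal-like, macrophage-like and T-like readings. Of the 6 cycling macrophage-like barcodes of diabetic, 1 was C1q-rich, so kind of cell and division cannot be told apart in that class. At least 2-fold lower were 19.2% of all genes compared in duct cells, 30.9% in macrophages, 13.4% in acinar-RNA-rich barcodes and 13.6% in T cells. At least 2-fold higher were 7.79%, 10.6%, 12.7% and 22.8% in the same order. The counts below, many of few genes, stand beside those shares. Among growth factor ligands and receptors, 1 of 15 was at least 2-fold higher and 3 lower in duct cells of diabetic-Exercise. In the other classes none was at least 2-fold higher, and 4 of 7 were lower in macrophages and 3 of 3 in acinar-RNA-rich barcodes of diabetic, and 2 of 2 in T cells of none. Cell cycle inhibitors and p53 targets gave 1 higher and 2 lower of 8 in macrophages, 1 and 2 of 5 in acinar-RNA-rich barcodes, and 0 and 3 of 4 in T cells. Cyclins and their partners outside the rule gave 1 higher and 2 lower of 6 in duct cells, 1 and 1 of 6 in macrophages, 0 and 1 of 1 in acinar-RNA-rich barcodes, and 2 and 0 of 4 in T cells. Cks2, a small subunit of cyclin-dependent kinases, stood at 28.8 times in duct cells (21 UMIs), 12.0 times in macrophages (16 UMIs) and 9.02 times in T cells (17 UMIs). In duct cells Cks2 had fewer than 2 expected UMIs, so it was not among the 6 genes compared there.

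Among protein folding genes, Hsp90ab1, a general chaperone gene, was above the other barcodes in all 4 classes. It stood at 1.61 times in duct cells, 1.61 in macrophages, 2.10 in acinar-RNA-rich barcodes and 1.78 in T cells. Median log2 ratios over all genes were 0.09, -0.02, 0.30 and 0.31 in that order. A single barcode held 230 of 404 heat shock UMIs in duct cells and 179 of 392 in T cells, and Hsp90ab1 was not recomputed without it. Heat shock genes as a list gave 0 higher and 2 lower of 13, 0 and 4 of 8, 2 and 0 of 5, and 1 and 0 of 6 in those classes. Genes of the unfolded protein and integrated stress responses gave 1 higher and 5 lower of 16 in duct cells, 1 and 7 of 13 in macrophages, and 4 and 1 of 11 in T cells. In macrophages Hspa5, the chaperone of the endoplasmic reticulum, stood at 0.280 times (interval 0.133 to 0.520), and Mthfd2, a mitochondrial folate enzyme used in nucleotide synthesis, at 6.60 times (2.70 to 15.3; 10 UMIs). Interferon genes gave 1 higher and 2 lower of 6, 0 and 3 of 7, 0 and 0 of 2, and 1 and 1 of 2. The one that was higher in T cells was Ifi27l2a, at 2.54 times (1.87 to 3.44). Tissue residence and repair genes in duct cells gave 1 higher and 1 lower of 3, and Spp1, which is also a ductal type gene, stood at 0.428 times. MHC class II genes gave 1 higher and 1 lower of 2 in duct cells, 1 and 1 of 7 in macrophages, and 0 and 1 of 1 in acinar-RNA-rich barcodes. Genes of ribosome making and metabolism gave 2 higher and 2 lower of 18 in duct cells, 1 and 1 of 13 in macrophages and 3 and 1 of 12 in acinar-RNA-rich barcodes. These values describe barcodes selected on cell cycle genes, and all rest on few cells.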
